A study of Mus musculus with 36 samples.

Results

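The genes described here were 10 angiogenic and anti-angiogenic factors and receptors of mouse embryonic fibroblasts, taken by name as 10 of the 55487 rows of a table of gene-level read counts. They were the growth factors Vegfa, Vegfb, Vegfc and Pgf, the angiopoietins Angpt1 and Angpt2, the receptors Flt1 and Nrp1, and the thrombospondins Thbs1 and Thbs2. All 10 passed the filter on low counts. The study compared how primary fibroblasts (MEFs) with different forms of the glucocorticoid receptor (GR) respond to the synthetic glucocorticoid dexamethasone (Dex), and the question for these genes was which of them responded and whether the response differed between receptor genotypes. MEFs were isolated from embryos at E13.5 after removal of the head and organs, and cultures were kept in groups of 3 for 5 h in 1 µM Dex or in solvent (vehicle) before RNA-seq. Run 1 held GRwt/wt cells with the normal receptor, GRD/D cells with a substitution at the dimer interface of the DNA-binding domain, GRD+L/D+L cells with that substitution and another in the ligand-binding domain, and GRko/ko cells that lack the receptor. Run 2 held GRL/L cells, with the ligand-binding domain substitution alone, and its own GRwt/wt cultures. The L and D+L alleles were made by CRISPR/Cas9 in zygotes and backcrossed to FVB/NJ, and the D+L line came from 1 founder pup. The labels give the strain FVB/NJ for every library, whereas the study's methods describe the parents of the GR knockout embryos as being of another inbred background, so that for GRko/ko genotype and strain cannot be told apart.

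Angiogenesis, the growth of new vessels from existing ones, is driven by ligands of the VEGF family that act on receptor tyrosine kinases of endothelial cells. Fibroblasts are a source of these ligands rather than their main target, and glucocorticoids are known for restraining vessel growth. Angiopoietins tune vessel stability through the receptor Tie2, and thrombospondins are matrix proteins that inhibit endothelial growth. GR acts on genes as a dimer at palindromic elements, or through half-sites and other transcription factors.

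The sequences before the start sites of Vegfa, Vegfc and Flt1 are shown because these genes responded to Dex in most genotypes, Vegfa by falling and Vegfc and Flt1 by rising. Each is the 250 bases before the RefSeq start in GRCm38.p6, written 5′ to 3′ on the gene's strand. Capitals mark the GC box GGGCGG, bound by Sp-family factors, and the TATA box TATAAA, each on either strand.
Vegfa, chr17:46032378-46032627, minus strand: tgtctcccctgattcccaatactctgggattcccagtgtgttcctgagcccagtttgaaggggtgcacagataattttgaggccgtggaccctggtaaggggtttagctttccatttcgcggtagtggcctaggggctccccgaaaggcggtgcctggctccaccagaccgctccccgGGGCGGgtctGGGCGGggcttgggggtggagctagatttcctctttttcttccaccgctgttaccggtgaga
Vegfc, chr8:54077282-54077531, plus strand: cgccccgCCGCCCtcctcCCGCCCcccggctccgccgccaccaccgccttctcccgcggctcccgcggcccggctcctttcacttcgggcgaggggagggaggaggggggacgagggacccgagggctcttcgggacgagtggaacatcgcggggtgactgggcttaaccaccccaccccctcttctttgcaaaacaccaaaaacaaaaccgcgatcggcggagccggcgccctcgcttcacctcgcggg
Flt1, chr5:147726012-147726261, minus strand: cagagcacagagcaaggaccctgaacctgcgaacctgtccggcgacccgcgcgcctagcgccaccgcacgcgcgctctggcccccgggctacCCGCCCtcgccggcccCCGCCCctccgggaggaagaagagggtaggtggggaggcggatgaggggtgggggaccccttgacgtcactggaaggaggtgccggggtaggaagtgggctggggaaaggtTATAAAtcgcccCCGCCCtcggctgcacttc

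RefSeq windows were found for 7 of the 10 genes, 9 windows in all, and not for Angpt1, Angpt2 and Thbs1. The GR half-site letters AGAACA were searched on both strands and were in 0 of the 9 windows, against 16.1% of 32851 such windows of all genes. The GC box was in both Vegfa windows, in the Vegfb, Vegfc, Nrp1 and Flt1 windows and in 1 of the 2 Pgf windows, against 32.7% of all windows. A TATA box lay 31 bases before the Flt1 start and in the Thbs2 window, against 12.4% of all windows. The hypoxia-factor core ACGTG was in 1 Vegfa window (16.6% of all) and the AP-1 letters TGANTCA in none of the 9 (6.75% of all). GC content was 70.4% before Flt1, 71.6% before Vegfc and 59.2% before the first Vegfa start. In the annotation (GENCODE M21, GRCm38) Vegfa (ENSMUSG00000023951) spans chr17:46016993-46032369, Vegfb (ENSMUSG00000024962) chr19:6982473-6987651, Vegfc (ENSMUSG00000031520) chr8:54077606-54187096 and Pgf (ENSMUSG00000004791) chr12:85166635-85177790. Angpt1 (ENSMUSG00000022309) lies at chr15:42424723-42676977, Angpt2 (ENSMUSG00000031465) at chr8:18690263-18741562 within the locus of Mcph1 on the opposite strand, Thbs1 (ENSMUSG00000040152) at chr2:118111876-118127133 and Thbs2 (ENSMUSG00000023885) at chr17:14665500-14694235. Nrp1 (ENSMUSG00000025810) spans chr8:128358604-128503363 and Flt1 (ENSMUSG00000029648) chr5:147561604-147726011. The motif matches describe letters in short windows and say nothing about binding.

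The 36 libraries held 15280166 to 28662608 counts each, with a median of 16579210.5 in run 1 and of 24827607.5 in run 2. The knockout was checked first: Nr3c1, which encodes GR, was at 16.1, 18 and 15.9 CPM (counts scaled to the library's effective size) in GRko/ko vehicle libraries against 67.2, 69.2 and 74.3 CPM in GRwt/wt of run 1. The groups did not overlap, with a log2 fold change of -2.08 ± 0.07 (SE, n = 3 per group). The 7 fibroblast markers summed to 19911 to 31390 CPM in every library. The 10 endothelial markers summed to 5.26 to 28.5 CPM, while Flt1 alone was at 62.8 to 356 CPM. Among these markers Cldn5 was at 0 in 35 libraries and Tie1 at 0 in 15. Kdr was at 3.01 to 16 CPM, and Erg, Emcn and Tek reached 18.8, 7.62 and 4.67 CPM. The 11 macrophage markers moved with genotype: in vehicle libraries of run 1 they summed to 210 to 375 CPM in GRwt/wt, 763 to 832 in GRD/D, 33.5 to 42.7 in GRD+L/D+L and 3178 to 3525 in GRko/ko, and in run 2 to 511 to 537 CPM in GRwt/wt and 916 to 1090 in GRL/L. Within each genotype their ranges in Dex and vehicle libraries overlapped. The 8 cartilage markers were highest in GRko/ko vehicle libraries (182 to 555 CPM), and the 7 pericyte and smooth muscle markers summed to 7123 to 8730 CPM in run 1 and 1603 to 2275 CPM in run 2, while the 5 epithelial markers summed to 0.559 to 24.1 CPM. In such bulk cultures fewer cells of a type and less RNA per cell cannot be told apart.

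In vehicle-treated GRwt/wt cultures, levels per exon length (RPKM, the CPM divided by the kilobases of exon) were led by the inhibitors. In run 1 Thbs1 was at 2748 ± 177 RPKM (SD, n = 3), Thbs2 at 188 ± 6.08 RPKM and Vegfa at 44.5 ± 2.51 RPKM, followed by Nrp1 (30.8 RPKM), Flt1 (15.5 RPKM), Vegfb (14.8 RPKM) and Vegfc (11.4 RPKM). Pgf (2.93 RPKM), Angpt2 (2.75 RPKM) and Angpt1 (1.14 RPKM) were lowest, with 73 to 618 counts of Angpt1 and 45 to 220 counts of Pgf per library over the series. The libraries of Flt1 and Vegfb overlapped, as did those of Pgf and Angpt2, and all other neighbours in this order were separate. In run 2 Thbs1, Thbs2 and Vegfa again led, at 1064 ± 106, 209 ± 11.1 and 20 ± 0.716 RPKM, whereas Pgf came last at 0.874 RPKM, and Vegfb, Vegfc and Nrp1 were neighbours whose libraries overlapped.

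At vehicle the GRwt/wt libraries of the 2 runs did not overlap for 9 of the 10 genes. The share of all genes that separate in this way was not computed, so the count says nothing particular about these genes. Pgf was 3.35 times as high in run 1 as in run 2, Flt1 2.83 times, Nrp1 2.79 times, Thbs1 2.58 times and Vegfa 2.22 times. Angpt1 was 2.27 times as high in run 2, and the Vegfc libraries of the runs overlapped (means of 28 and 27.7 CPM). Run and culture cannot be told apart here, so each mutant is set only against the GRwt/wt cultures of its own run.

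Dex changed 4 of the 10 genes in GRwt/wt cells of run 1 (2 up and 2 down), where 13.9% of all 15489 genes tested passed an adjusted p of 0.05 in edgeR's quasi-likelihood test. In GRwt/wt cells of run 2 it changed 8 of 10 (4 up and 4 down; 31.6% of all genes). The count was 6 of 10 in GRD/D (3 up and 3 down, 11.9% of all genes), 5 of 10 in GRL/L (4 up and 1 down, 19.1%) and 3 of 10 in GRD+L/D+L (2 up and 1 down, 5%). In GRko/ko cells 0 of 10 passed by edgeR or DESeq2, 0 of 10 were at an unadjusted p under 0.05, and 0% of all genes passed. The median absolute log2 change of the 10 genes was 0.30 and 0.49 in GRwt/wt of run 1 and run 2, 0.32 in GRD/D, 0.25 in GRL/L, 0.16 in GRD+L/D+L and 0.09 in GRko/ko. A model that gives the GRwt/wt cultures of both runs a single Dex response, with run as a further term, called all 10 genes in GRwt/wt. The share of all genes that it called is not given here. Responses of 6 of the 10 genes differed between the runs (7.09% of all genes). For Thbs2 the log2 change was 0.02 in run 1, -0.50 in run 2 and -0.24 in the pooled model, so a single response does not describe both runs.

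**Figure D1:**
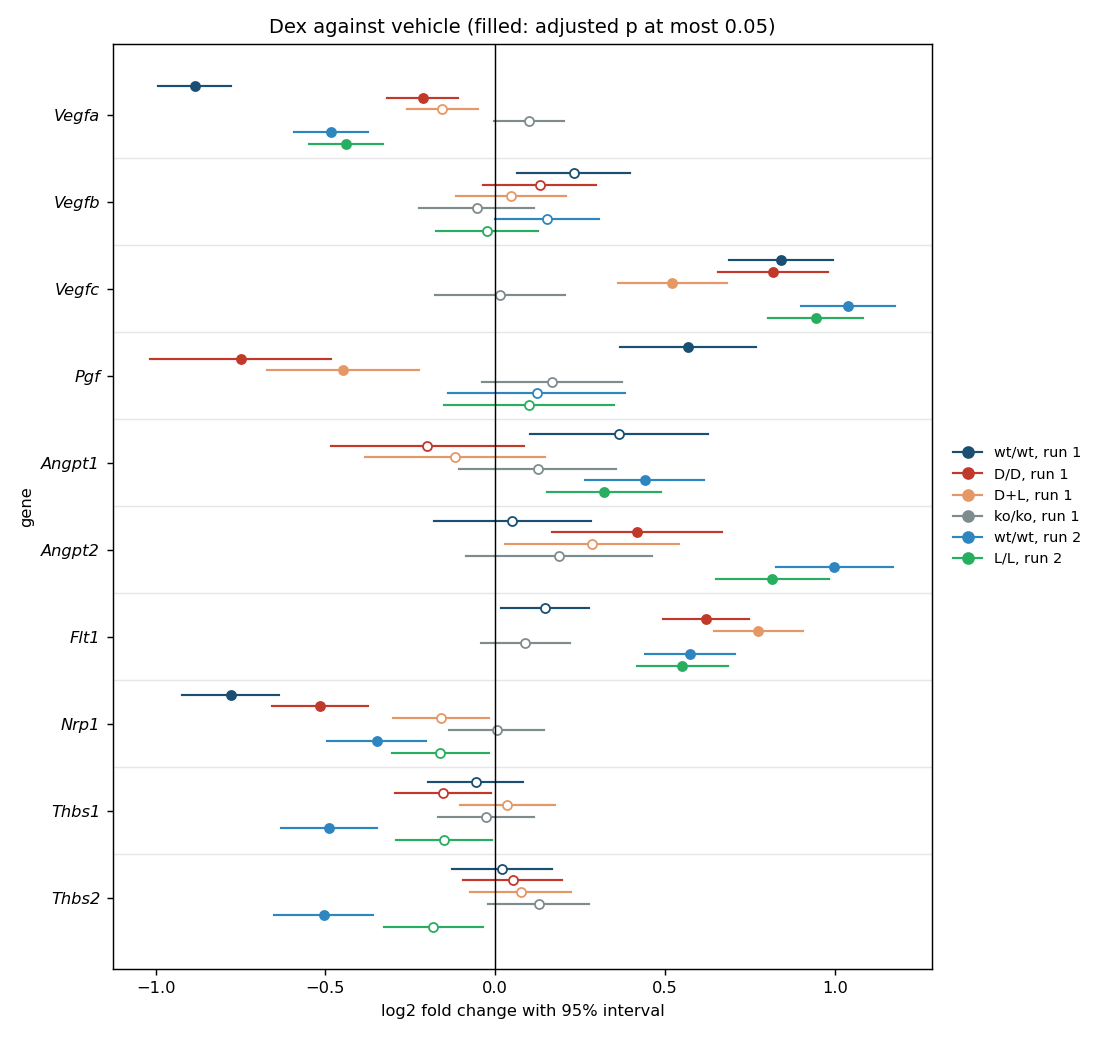
Log2 fold change of Dex against vehicle (x axis) for each of the 10 genes (y axis) in 6 sets of cultures, 3 libraries per group. Points are fitted values, bars are 95% intervals, and filled points passed an adjusted p of 0.05. The Vegfc intervals lie to the right of 0 in all sets except GRko/ko, where the point is at 0.01, Vegfa lies to the left of 0 in all except GRko/ko, and Pgf lies to the right in GRwt/wt of run 1 (0.57) but to the left in GRD/D (-0.75).

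Vegfa, the main inducer of vessel sprouting, fell with Dex. In run 1 the GRwt/wt vehicle cultures were at 189.8, 202 and 180.3 CPM and the Dex cultures at 98.9, 105 and 106 CPM. In run 2 they were at 84.4, 83.8 and 89.4 CPM with vehicle and 62.1, 62.5 and 59.6 CPM with Dex. Every Dex library was below every vehicle library of its run. The log2 fold change was -0.89 ± 0.05 (SE; adjusted p = 8.57e-16), a fall of 45.9%, in run 1 and -0.48 ± 0.05 (adjusted p = 2.51e-09) in run 2. GRL/L went from 68, 68.7 and 70.3 CPM to 54.1, 46.9 and 51.4 CPM, a change of -0.44 ± 0.05 (adjusted p = 5.25e-08). This was not told apart from GRwt/wt of the same run, the difference of the responses being 0.04 with a 95% interval of -0.11 to 0.20 (adjusted p = 0.885).

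The fall of Vegfa was smaller in both receptors that carry the D substitution. GRD/D cultures were at 252, 228 and 247 CPM with vehicle and 199.9, 222 and 205 CPM with Dex. GRD+L/D+L cultures were at 235, 222 and 244 CPM and then 214, 200.3 and 215 CPM, and GRko/ko cultures at 215, 199 and 209.7 CPM and then 221, 219 and 229 CPM. The Dex libraries lay below the vehicle libraries in GRD/D and GRD+L/D+L and above them in GRko/ko, without overlap in each case. Only GRD/D passed the test, with -0.21 ± 0.05 (adjusted p = 0.00356), whereas GRD+L/D+L was at -0.16 (adjusted p = 0.0738, but 0.0447 with DESeq2 and 0.0455 without its vehicle replicate 2) and GRko/ko at 0.10 (adjusted p = 0.909). The response differed from that of GRwt/wt in run 1 by 0.67 ± 0.07 in GRD/D (adjusted p = 3.48e-08), 0.73 ± 0.07 in GRD+L/D+L (adjusted p = 4.53e-09) and 0.99 ± 0.07 in GRko/ko (adjusted p = 1.06e-12).

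Vegfc, the ligand of VEGFR-3 that drives lymphatic growth, rose with Dex in every genotype that carried a receptor. GRwt/wt cultures of run 1 went from 24.7, 30.5 and 28.9 CPM to 49.7, 51 and 49.9 CPM, and those of run 2 from 24.6, 26.6 and 31.8 CPM to 59.2, 56 and 55.2 CPM. GRD/D went from 22.2, 21.7 and 21.3 CPM to 38, 39.7 and 37 CPM, GRL/L from 26, 22.2 and 24.1 CPM to 49.6, 43.1 and 46 CPM, and GRD+L/D+L from 25.5, 25.3 and 25.9 CPM to 37, 35.7 and 37.2 CPM. No Dex library of these sets overlapped a vehicle library. GRko/ko stood at 14.8, 15.2 and 13.2 CPM with vehicle and 15.1, 13.5 and 15 CPM with Dex, which overlapped.

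The log2 fold changes of Vegfc were 0.84 ± 0.08 in GRwt/wt of run 1 (1.79-fold, adjusted p = 4.51e-11), 1.04 ± 0.07 in run 2 (2.05-fold, adjusted p = 4.67e-15), 0.82 ± 0.08 in GRD/D (adjusted p = 7.7e-10) and 0.94 ± 0.07 in GRL/L (adjusted p = 2.08e-13). GRD+L/D+L reached 0.52 ± 0.08 (1.43-fold, adjusted p = 1.26e-05) and GRko/ko 0.01 ± 0.09. The response of GRD/D minus that of GRwt/wt was -0.02 with an interval of -0.25 to 0.20, and that of GRL/L minus GRwt/wt was -0.10 with an interval of -0.29 to 0.10. For GRD+L/D+L the difference was -0.32 (interval -0.54 to -0.10), which did not pass (adjusted p = 0.129), and for GRko/ko it was -0.83 ± 0.12 (adjusted p = 3.87e-06). The GRD+L/D+L difference passed when the fit held run 1 alone (adjusted p = 0.037) and in the model that pools both runs of GRwt/wt (0.00375). Between the GRwt/wt cultures of the runs the responses of Vegfc did not differ past the threshold, except without vehicle replicate 6 of run 2 (difference 0.31, adjusted p = 0.0445).

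Pgf, placental growth factor, a ligand of the receptor encoded by Flt1, rose in GRwt/wt cells of run 1 and fell in both genotypes with the D substitution. GRwt/wt cultures of run 1 were at 8.69, 8.15 and 8.63 CPM with vehicle and 13, 12 and 12.8 CPM with Dex. GRD/D cultures went down from 4.82, 6.04 and 5.3 CPM to 3.23, 3.4 and 3.01 CPM, and GRD+L/D+L cultures from 8.14, 7.99 and 8.71 CPM to 5.79, 6 and 6.4 CPM. Dex libraries lay wholly above vehicle in GRwt/wt and wholly below it in both mutants. The log2 fold changes were 0.57 ± 0.10 (adjusted p = 3.82e-05) in GRwt/wt, -0.75 ± 0.13 (adjusted p = 8.39e-05) in GRD/D and -0.45 ± 0.11 (adjusted p = 0.00841) in GRD+L/D+L. Without GRD+L/D+L Dex replicate 1 or vehicle replicate 3 the last had adjusted p-values of 0.0532 and 0.054 respectively. The responses differed from GRwt/wt by -1.32 ± 0.16 in GRD/D (adjusted p = 5.12e-07) and by -1.02 ± 0.15 in GRD+L/D+L (adjusted p = 9e-06), and in GRko/ko by -0.40 (adjusted p = 0.0755, and 0.0422 without GRko/ko Dex replicate 2).

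In run 2, where Pgf was low, no change was detectable. GRwt/wt cultures were at 2.5, 2.81 and 2.3 CPM with vehicle and 2.65, 3 and 2.63 CPM with Dex, and GRL/L cultures at 2.74, 3.07 and 2.31 CPM and then 2.68, 3.19 and 2.86 CPM. Both pairs of groups overlapped, with log2 fold changes of 0.12 (adjusted p = 0.54) and 0.10 (adjusted p = 0.691). These values rest on 62 to 97 counts per library.

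Vegfb, a VEGF-family ligand of the Flt1 receptor, did not pass in any genotype. Its vehicle libraries lay between 20.4 and 31.3 CPM and its Dex libraries between 21.5 and 30.1 CPM over the series. In run 1 GRwt/wt the libraries went from 23.5, 24.1 and 23.7 CPM to 26.3, 27.7 and 29.6 CPM. They did not overlap, but the log2 change of 0.23 ± 0.08 had an adjusted p of 0.0551, which fell to 0.049 without Dex replicate 1 and to 0.0494 with a filter of at least 10 counts in every library. In GRD/D the change passed without vehicle replicate 1 (0.25, adjusted p = 0.0385). In run 2 GRwt/wt it was 0.15 (adjusted p = 0.123).

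Angpt1 and Angpt2 encode ligands of the Tie2 receptor, the first an activator and the second able to oppose it. Angpt2 did not pass the test in GRwt/wt cells of run 1, at 10.4, 8.5 and 11.6 CPM with vehicle and 10.1, 9.92 and 11.6 CPM with Dex (log2 change 0.05 with an interval of -0.18 to 0.28, adjusted p = 0.849). In run 2 it went from 13.4, 15.1 and 12.7 CPM to 27.2, 26.6 and 28.6 CPM in GRwt/wt, and from 17, 18 and 16.2 CPM to 29.4, 32.5 and 28.5 CPM in GRL/L. In both run 2 genotypes every Dex library was above every vehicle library. The log2 fold changes were 1.00 ± 0.08 (adjusted p = 4.37e-12) and 0.82 ± 0.08 (adjusted p = 4.71e-10), and the run 2 response of GRwt/wt exceeded that of run 1 by 0.95 ± 0.14 (adjusted p = 1.14e-05).

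GRD/D cultures of run 1 went from 6.83, 7.31 and 6.76 CPM of Angpt2 to 8.19, 9.88 and 9.84 CPM. The groups did not overlap and the log2 change was 0.42 ± 0.12 (adjusted p = 0.0216). The call was lost when 1 of 4 libraries was left out in turn, with adjusted p-values of 0.111 (Dex replicate 2), 0.0908 (Dex replicate 3), 0.0515 (vehicle replicate 1) and 0.0592 (vehicle replicate 3). It was also lost in the model that pools the GRwt/wt cultures of both runs (0.153), although the log2 change stayed at 0.42. That model forces a single Angpt2 response on GRwt/wt cultures whose responses differed by 0.95 between runs. The GRD/D response differed from that of GRwt/wt in run 1 by 0.37 (adjusted p = 0.368). GRD+L/D+L was at 0.29 (adjusted p = 0.261) and GRko/ko at 0.19 (adjusted p = 0.935). Angpt2 had 82 to 807 counts per library, and Mcph1, which overlaps it on the opposite strand, had a mean of 348.8. The strand setting of the counting is not given in the sources used here, so that reads of Mcph1 among those of Angpt2 cannot be told apart.

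Angpt1 was higher in every Dex library than in every vehicle library of GRwt/wt in both runs. In run 1 it went from 5.32, 6.37 and 6.16 CPM to 6.8, 7.46 and 8.72 CPM, and in run 2 from 14, 13.9 and 12.6 CPM to 17.3, 17.6 and 20.0 CPM. The log2 change was 0.36 ± 0.13 in run 1 (adjusted p = 0.0554, not past the threshold, but 0.0346 without Dex replicate 1) and 0.44 ± 0.09 in run 2 (adjusted p = 0.000107). GRL/L rose by 0.32 ± 0.08 (adjusted p = 0.00424), from 16.4, 17.1 and 16.6 CPM to 19.5, 21.2 and 21.8 CPM. Dex libraries were also wholly above vehicle in GRko/ko, which lacks the receptor (8.35 to 8.85 CPM with vehicle and 9 to 10 CPM with Dex). In GRD/D they were wholly below it (5.19 to 6.04 CPM and then 4.89 to 5 CPM). The log2 change was -0.20 in GRD/D (adjusted p = 0.401), -0.12 in GRD+L/D+L (adjusted p = 0.794) and 0.13 in GRko/ko (adjusted p = 0.941). None of the differences from GRwt/wt passed (smallest adjusted p = 0.117, in GRD/D). In the model that pools both runs of GRwt/wt, those of GRD/D (-0.62, adjusted p = 0.00892) and GRD+L/D+L (-0.53, adjusted p = 0.0178) passed.

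**Figure D2:**
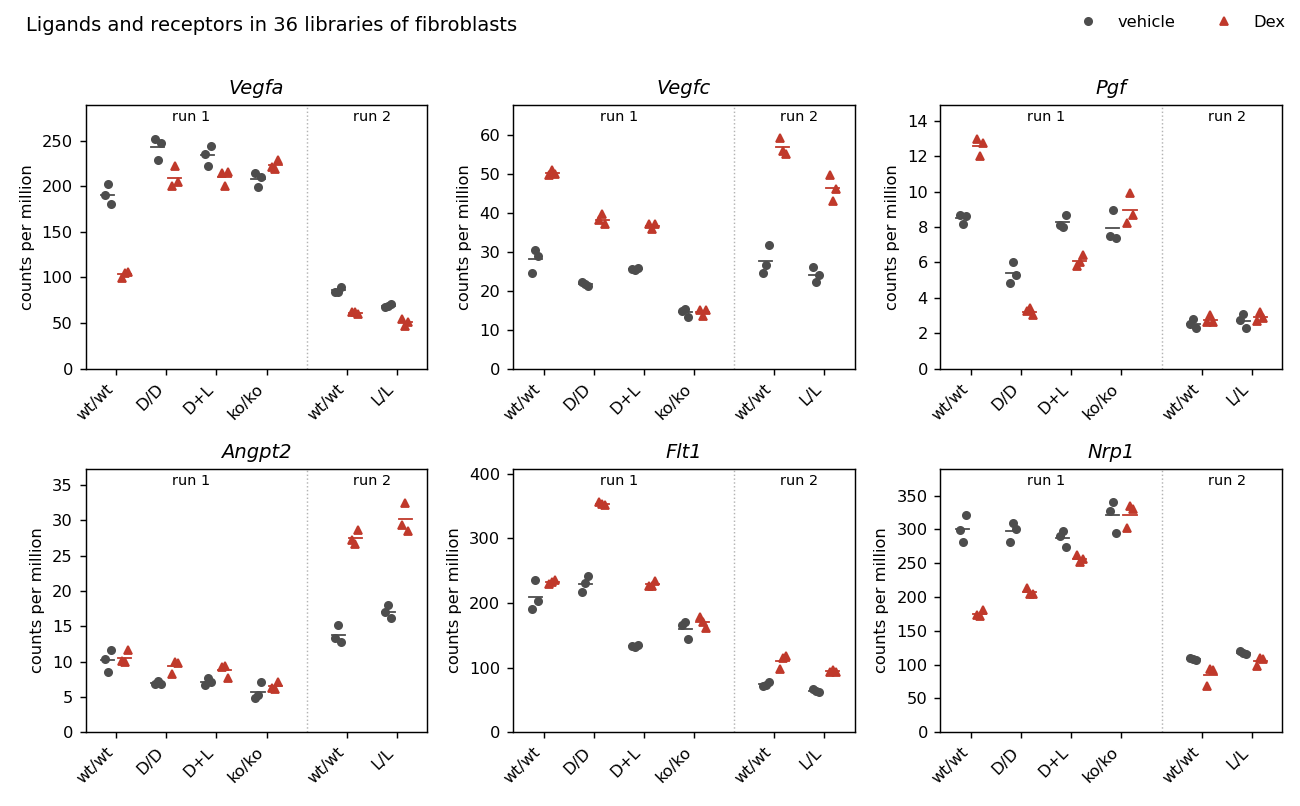
CPM (y axis, from 0) of 6 genes in each of the 36 libraries, by genotype (x axis) and run. Grey circles are vehicle and red triangles Dex libraries, and lines mark the mean of 3 libraries. Vegfa in Dex-treated GRwt/wt cells of run 1 (98.9 to 106 CPM) lies below all other libraries of run 1, and the red triangles of Flt1 stand above the circles in GRD/D and GRD+L/D+L.

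Flt1 encodes VEGFR-1, a receptor that binds VEGF-A, VEGF-B and placental growth factor and whose soluble form traps them, a form that gene-level counts do not separate. Its largest change was in the double mutant: GRD+L/D+L went from 134, 132 and 134 CPM to 226, 226 and 234 CPM, and GRD/D from 216, 232 and 241 CPM to 356, 353 and 352 CPM. GRwt/wt of run 1 was at 190.4, 235 and 204 CPM with vehicle and 229, 233 and 236 CPM with Dex. The groups were far apart in both mutants and overlapped in GRwt/wt. The log2 fold changes were 0.78 ± 0.06 in GRD+L/D+L (1.71-fold, adjusted p = 4.86e-11), 0.62 ± 0.06 in GRD/D (1.54-fold, adjusted p = 2.19e-09) and 0.15 ± 0.06 in GRwt/wt (adjusted p = 0.132, and 0.0122 without vehicle replicate 2).

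The Flt1 response exceeded that of GRwt/wt in run 1 by 0.63 ± 0.09 in GRD+L/D+L (adjusted p = 8.37e-06) and by 0.47 ± 0.09 in GRD/D (adjusted p = 0.000597). Under the model that pools the GRwt/wt cultures of both runs the GRD/D difference was 0.26 and did not pass (adjusted p = 0.115). In run 2 the GRwt/wt cultures themselves went from 71, 73 and 78.4 CPM to 97.1, 115 and 118 CPM and GRL/L from 66.4, 63.6 and 62.8 CPM to 92.4, 96.3 and 93.9 CPM. Neither pair overlapped, with log2 changes of 0.57 ± 0.07 (adjusted p = 5.2e-09) and 0.55 ± 0.07 (adjusted p = 2.74e-08) that differed by -0.02 (interval -0.21 to 0.17). GRko/ko was at 0.09 (adjusted p = 0.935). The summed endothelial markers of GRD+L/D+L were at 17.1 to 20.3 CPM with vehicle and 17 to 18.5 CPM with Dex, and those of GRD/D at 7.31 to 8.57 and 5.26 to 7.23 CPM. In GRwt/wt of run 1 they were higher with Dex (17.4 to 19.3 against 10.6 to 13.3 CPM), and in run 2 they were lower with Dex in GRwt/wt (13.9 to 16.6 against 18.9 to 20.3 CPM) and GRL/L (23.9 to 26.2 against 27.6 to 28.5 CPM). Kdr, among these markers, went from a mean of 8.05 to 15.1 CPM in GRwt/wt of run 1. In GRL/L it went from 4.39 to 5.65 CPM while the sum fell, so the sums join genes that moved in opposite directions. The part of the endothelial markers in the Flt1 values was not tested.

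Nrp1, neuropilin 1, a coreceptor for VEGF-A and class 3 semaphorins, fell with Dex in GRwt/wt and GRD/D. Run 1 GRwt/wt libraries were at 299.8, 282 and 321 CPM with vehicle and 174, 172 and 180.4 CPM with Dex, and GRD/D libraries at 282, 309 and 300.4 CPM and then 213, 205 and 205 CPM. GRD+L/D+L went from 290.0, 298 and 273 CPM to 263, 251 and 256 CPM, and GRko/ko from 327, 341 and 295 CPM to 302, 334 and 330.0 CPM. Vehicle and Dex libraries were separate except in GRko/ko. The log2 change was -0.78 ± 0.07 in GRwt/wt (adjusted p = 5e-11), -0.52 ± 0.07 in GRD/D (adjusted p = 1.01e-06), -0.16 in GRD+L/D+L (adjusted p = 0.249) and 0.00 in GRko/ko.

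The Nrp1 response differed from GRwt/wt by 0.62 ± 0.10 in GRD+L/D+L (adjusted p = 4.59e-05) and by 0.78 ± 0.10 in GRko/ko (adjusted p = 2.25e-07), while for GRD/D the difference of 0.26 (interval 0.06 to 0.46) did not pass (adjusted p = 0.193). In run 2 GRwt/wt libraries went from 109, 108 and 107 CPM to 68.3, 93.4 and 92.4 CPM, the first Dex library standing below the others. The change was -0.35 ± 0.07 (adjusted p = 0.000184). GRL/L was at 121, 118 and 115 CPM and then 98.1, 109 and 109 CPM, a change of -0.16 that did not pass (adjusted p = 0.113) and was not told apart from GRwt/wt (difference 0.19, interval -0.02 to 0.39).

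**Figure D3:**
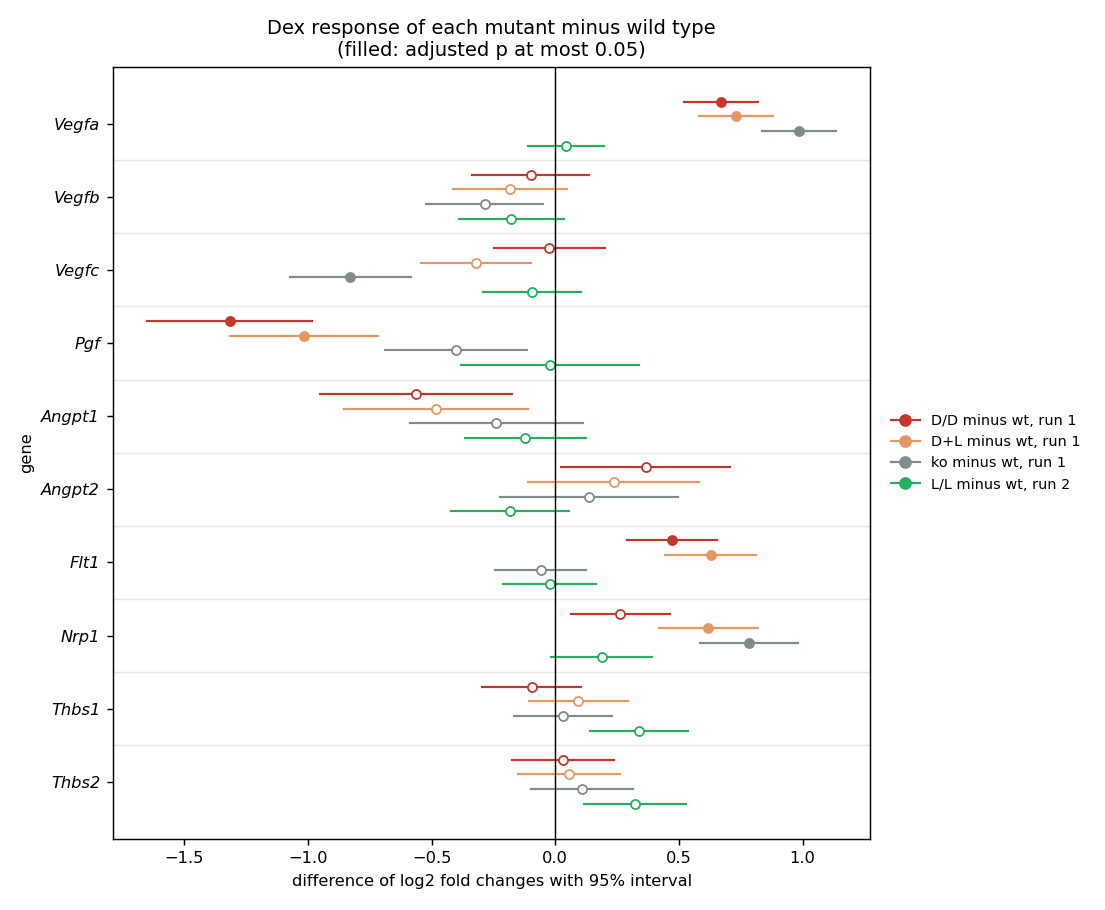
Difference between the log2 Dex response of a mutant and that of GRwt/wt cells of the same run (x axis) for the 10 genes (y axis), with 95% intervals. Filled points passed an adjusted p of 0.05. Vegfa lies to the right of 0 in the 3 mutants of run 1 (0.67 to 0.99) and Pgf to the left in GRD/D and GRD+L/D+L (-1.32 and -1.02), whereas no GRL/L point is filled.

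Of the 10 genes, 3 differed in their Dex response between GRD/D and GRwt/wt (3.29% of all genes), 4 between GRD+L/D+L and GRwt/wt (3.23%) and 3 between GRko/ko and GRwt/wt (8.48%). These comparisons share the GRwt/wt libraries of run 1. Between GRL/L and GRwt/wt of run 2, 0 of 10 passed by edgeR (1.85% of all genes), with 2 at an unadjusted p under 0.05 and 1 passing by DESeq2. Between the GRwt/wt cultures of run 2 and run 1, 6 of 10 differed (7.09% of all genes): the falls of Vegfa and Nrp1 were smaller in run 2 by 0.40 and 0.43, Angpt2 and Flt1 rose more by 0.95 and 0.43, and the responses of Thbs1 and Thbs2 were more negative (differences of -0.43 and -0.52).

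Thbs1 and Thbs2, which encode matrix proteins that inhibit endothelial growth, did not pass the test in any genotype of run 1. Thbs1 was at 16134, 16002 and 17927 CPM with vehicle and 16232, 16109 and 15758 CPM with Dex in GRwt/wt, and Thbs2 at 1279, 1302 and 1362 CPM and then 1261, 1340.2 and 1398 CPM. Both overlapped, with log2 changes of -0.06 (interval -0.20 to 0.08) and 0.02 (interval -0.13 to 0.17). In run 2 Thbs1 went from 6077, 6105 and 7205 CPM to 4181, 4692 and 4940.0 CPM and Thbs2 from 1428, 1415 and 1555 CPM to 951, 1046 and 1103 CPM. There every Dex library was below every vehicle library, with changes of -0.49 ± 0.07 (adjusted p = 5.5e-07) and -0.50 ± 0.07 (adjusted p = 5.47e-07). In GRL/L the changes were -0.15 (adjusted p = 0.136, and 0.0112 without Dex replicate 1) and -0.18 (adjusted p = 0.0711, and 0.0369 with run 2 fitted alone). The responses of GRL/L and GRwt/wt differed by 0.34 for Thbs1 (interval 0.14 to 0.54, adjusted p = 0.0684) and by 0.32 for Thbs2 (interval 0.12 to 0.53, adjusted p = 0.104). The Thbs1 difference passed without GRL/L Dex replicate 2 (0.0316), without GRwt/wt Dex replicate 6 (0.0321) and with DESeq2 (0.0491), and that of Thbs2 passed when the GRko/ko libraries were left out of the fit (0.0252). In the model that pools both runs of GRwt/wt the Thbs2 response of GRko/ko differed from GRwt/wt (0.37, adjusted p = 0.0288). In GRD/D, GRD+L/D+L and GRko/ko the log2 changes of both genes lay between -0.15 and 0.13. An antisense gene, Gm29233, with a mean of 119.9 counts per library, overlaps the locus of Thbs1, whose own median was 230259.5 counts.

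**Figure D4:**
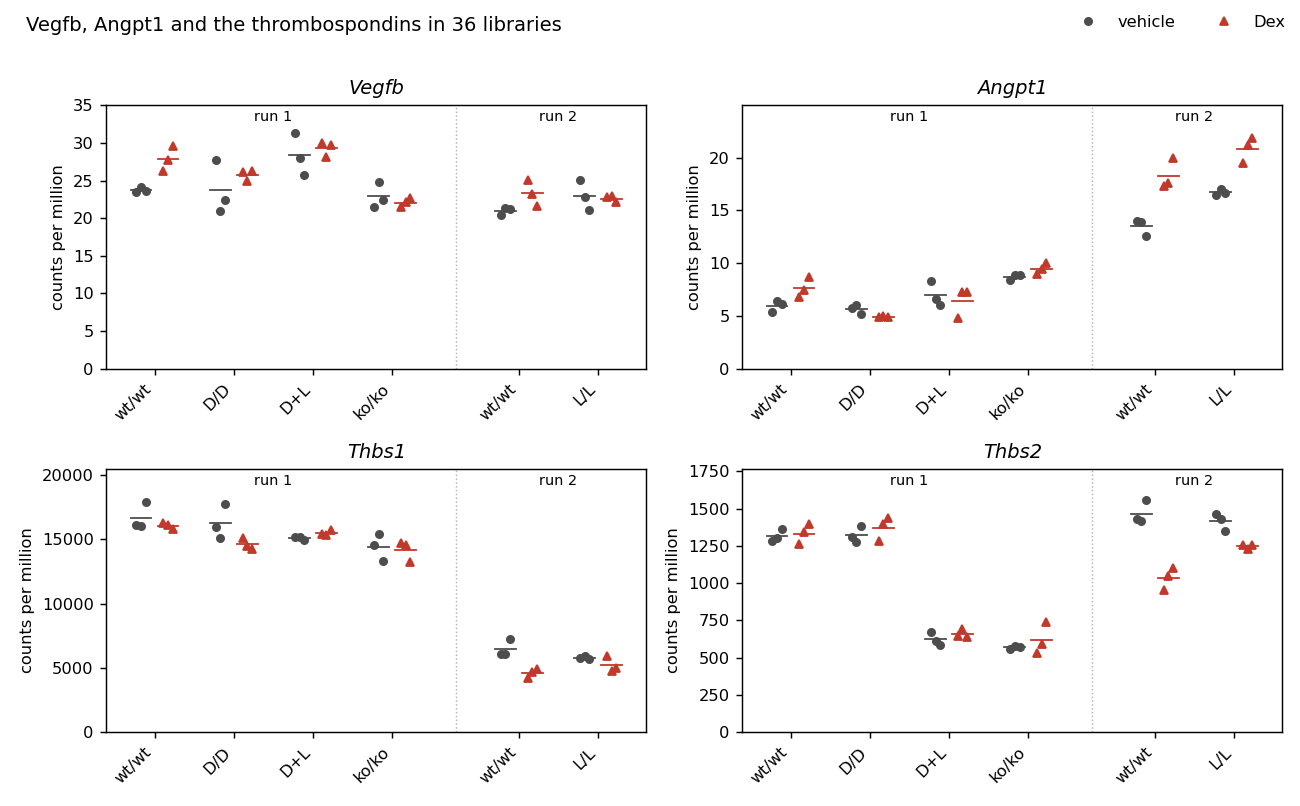
CPM (y axis, from 0) of Vegfb, Angpt1, Thbs1 and Thbs2 in each of the 36 libraries, by genotype (x axis) and run, with grey circles for vehicle, red triangles for Dex and lines for means of 3 libraries. Thbs2 lies at 532 to 741 CPM in GRko/ko and 584 to 689.7 CPM in GRD+L/D+L, below all other groups.

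The second question was whether the genotypes differed without Dex. At vehicle, 4 of the 10 genes differed between GRD/D and GRwt/wt (9.55% of all genes), 5 between GRD+L/D+L and GRwt/wt (29.9%), 7 between GRko/ko and GRwt/wt (45.7%) and 4 between GRL/L and GRwt/wt of run 2 (11.3%). The summed macrophage markers given above moved with each of these comparisons, with all 11 genes up in GRD/D, GRko/ko and GRL/L and all 11 down in GRD+L/D+L. Cartilage markers were higher in GRko/ko (182 to 555 CPM) and GRD+L/D+L (28.7 to 31.2 CPM) than in GRwt/wt (20.3 to 21.9 CPM). They were also higher in GRL/L (114 to 117 against 68 to 82.6 CPM). Pericyte and smooth muscle markers were lower in GRko/ko (7202 to 7459 against 7622 to 8108 CPM). They were also lower in GRL/L (1603 to 1639 against 1861 to 1968 CPM). Most of this sum was Acta2, which alone was at 1439 to 7927 CPM over the series, against sums of 1603 to 8730 CPM. Rgs5, Kcnj8 and Abcc9 reached at most 2.98, 0.822 and 1.08 CPM. Epithelial markers were higher in GRko/ko (8.03 to 9.29 against 4.22 to 5.32 CPM). In GRL/L the epithelial markers were lower (1.27 to 1.65 against 3.17 to 24.1 CPM). Fibroblast markers were lower in GRD+L/D+L (20113 to 20468 against 25104 to 27128 CPM) and higher in GRko/ko (28960 to 29663 CPM) and GRL/L (27590 to 31381 against 24894 to 27585 CPM). Endothelial markers were lower in GRD/D (7.31 to 8.57 against 10.6 to 13.3 CPM) and higher in GRD+L/D+L (17.1 to 20.3 CPM), GRko/ko (18.1 to 22.1 CPM) and GRL/L (27.6 to 28.5 against 18.9 to 20.3 CPM). Among them Pecam1 and Cdh5 reached at most 0.638 and 1.47 CPM over the series, against 16 and 18.8 CPM for Kdr and Erg. A few genes can therefore carry the endothelial sums. The part of these markers in the vehicle differences was not tested. The p-values measure the spread between libraries within groups, which was small (common biological coefficient of variation 0.0513). They do not measure differences between sets of cultures, and the GRwt/wt sets of the 2 runs also differed, as given above. Genotype and set of cultures therefore cannot be told apart in any of these vehicle comparisons.

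Thbs2 had the largest vehicle difference. GRwt/wt libraries were at 1279, 1302 and 1362 CPM and GRD/D libraries at 1311, 1275 and 1385 CPM, whereas GRD+L/D+L libraries were at 675, 611 and 584 CPM and GRko/ko libraries at 555, 576 and 574 CPM. GRwt/wt and GRD/D overlapped, and GRD+L/D+L and GRko/ko lay far below them. The log2 differences from GRwt/wt were -1.08 ± 0.07 in GRD+L/D+L (adjusted p = 2.88e-14) and -1.21 ± 0.07 in GRko/ko (adjusted p = 1.41e-16), against 0.01 (interval -0.14 to 0.16) in GRD/D. Thbs1 was lower in GRko/ko by -0.21 (adjusted p = 0.0128), a call that was lost without GRko/ko vehicle replicate 3 (0.0896) or GRwt/wt vehicle replicate 3 (0.0943).

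Among the ligands, Vegfa was higher at vehicle in GRD/D (0.35 ± 0.05, adjusted p = 6.5e-06) and GRD+L/D+L (0.29 ± 0.05, adjusted p = 2.3e-05) and lower in GRL/L (-0.32 ± 0.05, adjusted p = 4.12e-05), with no overlap with the GRwt/wt libraries of the same run. In GRko/ko it was 0.12 higher (adjusted p = 0.0458), but these libraries overlapped GRwt/wt and the call was lost with DESeq2 (0.093) and without any 1 of 4 libraries (GRko/ko or GRwt/wt vehicle replicate 1 or 3, adjusted p = 0.11 to 0.253). Vegfc was lower in GRko/ko by -0.96 ± 0.09 (adjusted p = 1.14e-11) and in GRD/D by -0.37 ± 0.08 (adjusted p = 0.00213), again without overlap, and passed in GRL/L without GRL/L replicate 1 or GRwt/wt replicate 4 (adjusted p = 0.0415 and 0.0135). Pgf was lower in GRD/D, by -0.65 ± 0.11 (adjusted p = 6.21e-05), and was at -0.04 in GRD+L/D+L and -0.09 in GRko/ko. Vegfb was higher in GRD+L/D+L by 0.26 (adjusted p = 0.0158, but 0.157 without vehicle replicate 1 of that genotype and 0.0502 without that of GRwt/wt).

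Angpt2 was lower at vehicle in the 3 mutants of run 1, by -0.55 ± 0.12 in GRD/D (adjusted p = 0.00206), -0.50 ± 0.12 in GRD+L/D+L (adjusted p = 0.00169) and -0.83 ± 0.13 in GRko/ko (adjusted p = 9.09e-07), and higher in GRL/L in run 2, by 0.31 ± 0.09 (adjusted p = 0.0134). In the model that pools the GRwt/wt cultures of both runs the GRD/D, GRD+L/D+L and GRL/L differences did not pass (adjusted p = 0.414, 0.429 and 0.616). Angpt1 was higher in GRko/ko by 0.55 ± 0.13 (adjusted p = 0.000453) and in GRL/L by 0.31 ± 0.09 (adjusted p = 0.014). Flt1 was lower in GRD+L/D+L by -0.65 ± 0.07 (adjusted p = 4.87e-10), in GRko/ko by -0.39 ± 0.06 (adjusted p = 3.76e-06) and in GRL/L by -0.21 ± 0.07 (adjusted p = 0.0367), and passed in GRD/D without GRwt/wt replicate 2 (0.0272). Of the 4 GRL/L calls, 3 were lost when 1 library was left out. Without GRwt/wt vehicle replicate 6 the adjusted p was 0.087 for Angpt1, 0.0875 for Angpt2 and 0.188 for Flt1, and without GRL/L vehicle replicate 2 it was 0.055, 0.08 and 0.116. Angpt2 was also lost without GRwt/wt replicate 4 (0.0578), and Flt1 without GRL/L replicate 1 or 3 or GRwt/wt replicate 5 (0.0557, 0.118 and 0.0736). Nrp1 did not pass in any genotype (log2 differences from -0.07 to 0.13), although the GRL/L libraries (115 to 121 CPM) lay above those of GRwt/wt (107 to 109 CPM). In the model that pools both runs of GRwt/wt the vehicle difference passed for Nrp1 in GRko/ko (0.19, adjusted p = 0.0426), Flt1 in GRD/D (0.23, adjusted p = 0.0339), Thbs1 in GRD+L/D+L (-0.25, adjusted p = 0.0166) and Vegfc in GRL/L (-0.25, adjusted p = 0.0165).

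**Figure D5:**
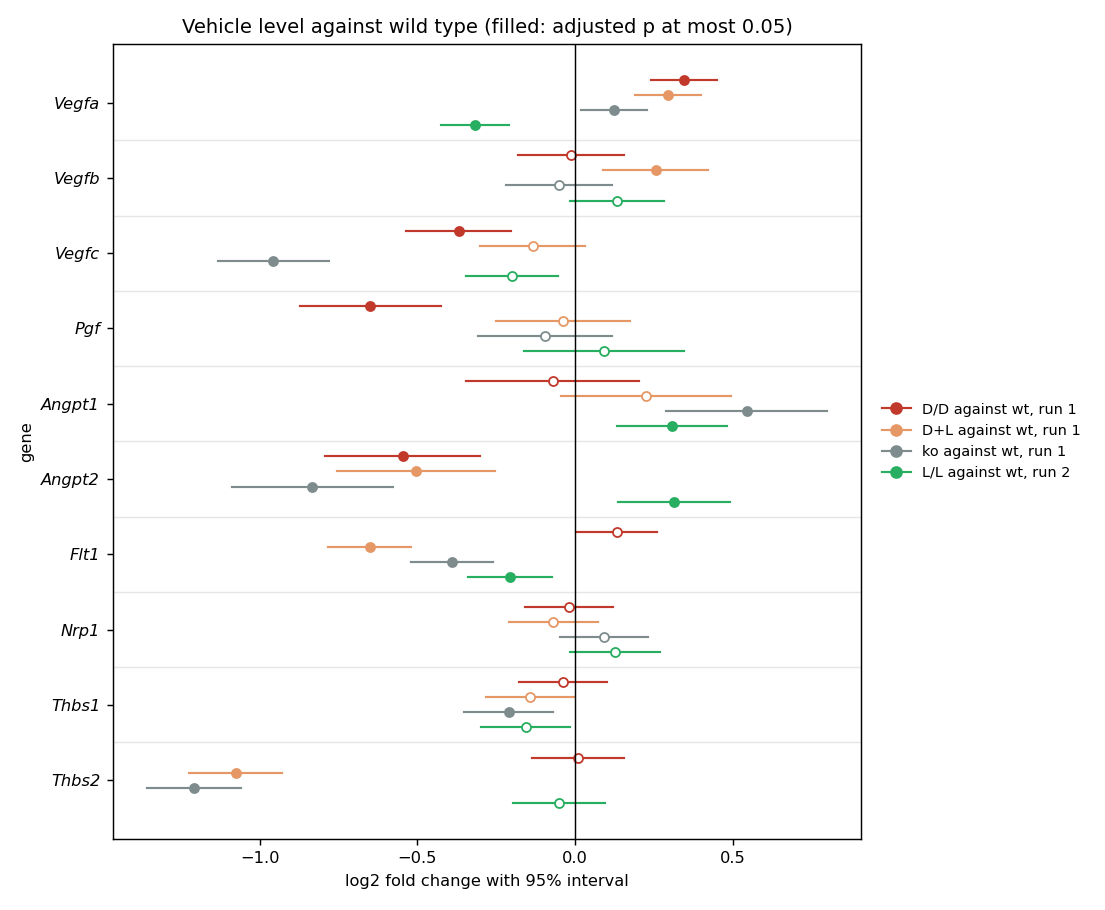
Log2 fold change of the vehicle level in each mutant against GRwt/wt cells of the same run (x axis) for the 10 genes (y axis), with 95% intervals. Filled points passed an adjusted p of 0.05. Thbs2 lies at -1.08 in GRD+L/D+L and -1.21 in GRko/ko but at 0.01 in GRD/D, and Angpt2 lies to the left of 0 in the 3 mutants of run 1.

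Other genes of the same pathways were taken from 7 lists that hold 55 genes, 54 of which were tested (Tie1 was too low). Tie1, Tek and Kdr also stand among the endothelial markers and Comp among the cartilage markers. Dex raised 17 and lowered 5 of the 54 in GRwt/wt of run 1 (13.9% of all genes passed), raised 18 and lowered 13 in run 2 (31.6%), raised 9 and lowered 3 in GRD/D (11.9%), raised 12 and lowered 10 in GRL/L (19.1%) and raised 5 and lowered 1 in GRD+L/D+L (5%). By edgeR 0 passed in GRko/ko (5 at an unadjusted p under 0.05). The median log2 change of the 54 genes lay between -0.00354 and 0.0553 over the sets, beside medians of all genes tested between -0.0114 and -0.000266.

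Of 4 other VEGF-family genes, 2 rose and 1 fell in GRwt/wt of run 1 (13.9% of all genes), 1 rose and 1 fell in run 2 (31.6%), and 2 rose and 1 fell in GRL/L (19.1%), while by edgeR 0 passed in GRD/D (2 at an unadjusted p under 0.05) and 0 in GRD+L/D+L (0 at that level). Vegfd, a further ligand of VEGFR-3, rose by 0.43 in GRwt/wt of run 1 (adjusted p = 0.0028) and by 1.34 in run 2 (adjusted p = 4.08e-18), rose by 0.92 in GRL/L, and was at -0.01 in GRD/D and 0.10 in GRD+L/D+L, neither past the threshold. Nrp2, the neuropilin that binds VEGF-C, fell by 0.35 and 0.84 in GRwt/wt of run 1 and run 2 and by 0.58 in GRL/L. Kdr, which encodes VEGFR-2, rose by 0.91 in GRwt/wt of run 1 and by 0.36 in GRL/L, and Flt4, which encodes VEGFR-3, passed in no set. Of 7 tested angiopoietin and Tie genes, 2 rose and 1 fell in GRwt/wt of run 1 (13.9% of all genes) and 1 rose and 3 fell in run 2 (31.6%). Angptl7 rose by 2.81, 3.08 and 3.24 in GRwt/wt of run 1, of run 2 and in GRL/L, and Angptl4, an inhibitor of lipoprotein lipase, changed by -1.57, -1.76 and -1.46 there and by -0.73 in GRD/D. The rise of Angptl7 in GRwt/wt of run 1 began near the floor, from 0.27 to 0.45 CPM with vehicle to 2.19 to 3.24 CPM with Dex. GRko/ko cultures with vehicle were higher, at 6.41 to 15.8 CPM.

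Of 12 hypoxia regulators and targets, 5 rose in GRwt/wt of run 1 (13.9% of all genes passed), 7 in run 2 (31.6%), 6 in GRL/L (19.1%), 1 in GRD/D (11.9%) and 1 in GRD+L/D+L (5%). In GRD/D and GRD+L/D+L that is near the share of all genes, and the counts of the genotypes were not tested against each other. The gene that rose in GRD/D and GRD+L/D+L was Adm, the vasodilator peptide adrenomedullin, which rose by 1.26 and 2.08 in GRwt/wt of run 1 and run 2, 1.55 in GRL/L, 1.05 in GRD/D and 0.76 in GRD+L/D+L. Epas1, which encodes HIF-2α, rose by 0.78, 2.32 and 0.63 in GRwt/wt of run 1, of run 2 and in GRL/L and was at -0.20 in GRD/D and -0.36 in GRD+L/D+L, neither past the threshold. Hif1a rose by 0.40, 0.42 and 0.23 in the first 3 sets. Vegfa, a textbook target of hypoxia signalling, fell in the same 3 sets.

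Of 6 other inhibitors, 2 rose and 1 fell in GRwt/wt of each run (13.9% and 31.6% of all genes passed). Adamts1, a protease with anti-angiogenic activity, rose by 2.18 ± 0.06 in GRwt/wt of run 1 (adjusted p = 4.66e-26), 1.64 in run 2, 1.29 in GRL/L, 0.75 in GRD/D and 0.91 in GRD+L/D+L, and was at -0.01 in GRko/ko. Of 9 other secreted factors, 4 rose and 1 fell in GRwt/wt of run 1 (13.9% of all genes) and 4 rose and 3 fell in run 2 (31.6%). Hgf, hepatocyte growth factor, fell in all 5 sets with a receptor, from -0.33 in GRD/D to -1.62 in GRwt/wt of run 2. Ccn2, connective tissue growth factor, rose in the same 5 sets, from 0.18 in GRD+L/D+L (adjusted p = 0.0432) to 1.39 in GRwt/wt of run 2. Cxcl12, a chemokine, rose by 0.43 in GRwt/wt of run 1 and fell by 0.54 in run 2. In run 1 its libraries overlapped, at 12.3 to 13.9 CPM with vehicle and 13.1 to 20.8 CPM with Dex. Its vehicle level was far higher in run 2 (219 to 229 CPM). Of 11 semaphorins and plexins, 1 rose and 1 fell in GRwt/wt of run 1, near the 13.9% of all genes, and 2 rose and 5 fell in run 2, where 31.6% of all genes passed. Plxna2, a semaphorin coreceptor, rose by 1.1 and 0.33 in GRwt/wt of run 1 and run 2. Of 5 thrombospondin relatives and receptors, 1 passed in GRwt/wt of either run, Cd47, a thrombospondin receptor, which rose by 0.50 and 0.20.

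After centring each run on its mean, the genes whose log2 CPM over the 36 libraries was most like that of Vegfa, of 11780 genes, were Oaf (r = 0.92), Socs5 (0.859) and Slco2a1 (0.849). For Vegfc they were Esrp2, E2f6 and Rock2 (0.962 each), and for Nrp1 Sipa1l2 (0.896), Lrig3 and Slc38a1 (0.884 each). Among the 10 genes the strongest correlations were -0.836 between Vegfc and Nrp1 and 0.788 between Vegfc and Angpt2. These are descriptions over libraries that share genotype, treatment and run.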

How the data were processed

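The data were gene-level read counts of 36 RNA-seq libraries (TruSeq) of MEFs, 24 in run 1 and 12 in run 2, in 12 groups of 3. The study describes 3 cultures per genotype, each from a different mouse, treated with vehicle or Dex, so that vehicle and Dex libraries may share mice. Whether a shared replicate number marks the same mouse is not given in the sources used here. The authors aligned reads to mm10 with HISAT2 2.1.0, counted uniquely mapped reads per gene with featureCounts 2.0.0 and deposited the raw counts without normalization. The annotation release and the strand setting are not given in the sources used here. Libraries held 15280166 to 28662608 counts, and counting error weighs most on Pgf, with as few as 45 counts. Symbols and exon lengths from GENCODE M21 matched 55141 of 55487 identifiers.

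Low genes were removed with filterByExpr over the 12 groups, leaving 15489 genes that held 99.93% of counts. Library sizes were scaled by TMM, and CPM and RPKM were computed with these effective sizes (prior count of 2 for log2 CPM). All 36 libraries entered 1 fit of edgeR's quasi-likelihood test (edgeR 4.0.16, limma 3.58.1, R 4.3.3) with a term per group and 24 residual degrees of freedom. Dex effects, differences between Dex effects and vehicle levels were contrasts (15 in all), with Benjamini-Hochberg adjustment over all 15489 genes and a threshold of 0.05. All were within a run except the difference between the Dex effects of the GRwt/wt cultures of run 2 and run 1. Values after ± are SE for fold changes and SD for levels, and intervals are 95% intervals of the fit. P-values of this fit rest on the spread between libraries within groups, estimated for each gene over all 12 groups of 3 libraries. To the 24 residual degrees of freedom the fit added 11.1 prior degrees of freedom drawn from all genes tested.

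The 10 genes, the 7 pathway lists and the marker lists were chosen with earlier results of these data known. For each pathway list up to 4 genes with the smallest adjusted p in GRwt/wt cells were eligible to be named. For Vegfa, Vegfc and Nrp1 the 3 genes closest in log2 CPM are given, out of those that average 50 counts or more. Promoter windows are from RefSeq (GRCm38.p6). Alternatives were DESeq2 size factors, DESeq2 1.42.0, no filter, at least 10 counts in every library, the replicate number as a block, a model pooling the GRwt/wt cultures of both runs with a run term, each run fitted alone, the fit without GRko/ko libraries, each library left out and a log2 fold change of at least 1. Scripts (Python 3.11.15, pandas 2.3.3, matplotlib 3.10.9) were tested on simulated data.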

Additional observations from a re-analysis of the deposited data

Results flagged for a closer look

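Of 50 differences between Dex responses tested (10 genes in 4 mutants against GRwt/wt of the same run, and in GRwt/wt of run 2 against run 1), 16 passed, each by edgeR's quasi-likelihood test of the difference at an adjusted p of 0.05. Of all genes, 3.29% passed in GRD/D, 3.23% in GRD+L/D+L, 8.48% in GRko/ko, 1.85% in GRL/L and 7.09% between the GRwt/wt cultures of the runs. With 3 libraries per group, single libraries were not checked for standing apart.

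For Vegfa the response differed by 0.67 in GRD/D, 0.73 in GRD+L/D+L and 0.99 in GRko/ko on the log2 scale, and by 0.40 in GRwt/wt of run 2. For Pgf it differed by -1.32 in GRD/D and -1.02 in GRD+L/D+L, where Dex lowered the gene that it raised in GRwt/wt. For Vegfc the difference was -0.83 in GRko/ko. Nrp1 differed by 0.62 in GRD+L/D+L, 0.78 in GRko/ko and 0.43 in GRwt/wt of run 2. Flt1 differed by 0.47 in GRD/D, 0.63 in GRD+L/D+L and 0.43 in GRwt/wt of run 2. The other differences were between the GRwt/wt cultures of run 2 and run 1 and came to 0.95 for Angpt2, -0.43 for Thbs1 and -0.52 for Thbs2. The differences within run 1 share the GRwt/wt libraries of that run.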

How the results depend on the processing

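Over the 10 genes and 15 comparisons, 62 of 150 results passed the threshold, and no called value changed sign under any alternative run. Of 1140 values under alternatives other than leaving out a library, 1095 kept their side of the threshold, 11 were lost and 34 gained. Of 1200 values with a library left out, 1163 kept theirs, 24 were lost and 13 gained. The model pooling both runs of GRwt/wt called 10 genes against 4 for Dex in GRwt/wt of run 1. That model gives both runs a single response, although several responses differed between the runs, and its share of all genes is not given here. Without the filter on low counts 8 against 5 passed for Dex in GRL/L. For the difference between the Dex responses of GRL/L and GRwt/wt the count of 0 became 2 without the filter, 1 without the GRko/ko libraries, 1 with DESeq2 and 0 to 1 with a library left out (1 without GRL/L Dex replicate 2 or GRwt/wt Dex replicate 6). For the vehicle difference of GRL/L it was 1 to 4 with a library left out (1 without GRL/L replicate 2 or GRwt/wt replicate 6) against 4. The cause of these shifts was not tested. With a log2 fold change of at least 1 as a further limit, Dex calls fell to 0, 1, 0, 0 and 0 in GRwt/wt of run 1, of run 2, GRD/D, GRL/L and GRD+L/D+L, and vehicle calls to 0 in GRD/D, 1 in GRD+L/D+L, 1 in GRko/ko and 0 in GRL/L.

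Deviations of same-numbered vehicle and Dex libraries had correlations of -0.0787 to 0.116 over 18 pairs, 1 of them over 0.1, and in 9 of 18 pairs the Dex library correlated best with the vehicle library of its own number. Whether a number marks a shared mouse is not stated, and these correlations do not settle it. With the replicate number as a block, 2 genes (Thbs1 and Thbs2, adjusted p = 0.0435 and 0.0466) differed in Dex response between GRL/L and GRwt/wt against 0 without it, Thbs2 passed for Dex in GRL/L (0.0316), Vegfa missed the threshold at vehicle in GRko/ko (0.0507), and no other call changed. The vehicle comparison of GRL/L has no such fit, since its groups share no replicate numbers. No value exists for the comparison of runs from a single run or the pooled model, or for GRko/ko comparisons without its libraries. Depth limits Pgf (45 to 220 counts per library), Angpt1 (73 to 618) and Angpt2 (82 to 807) most.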

Other observations

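Without Dex, the other pathway genes also differed between genotypes. Of the 54 tested, 12 were higher and 12 lower in GRD/D than in GRwt/wt of run 1 (9.55% of all genes passed), 14 higher and 11 lower in GRD+L/D+L (29.9%), 17 higher and 16 lower in GRko/ko (45.7%), and 15 higher and 4 lower in GRL/L than in GRwt/wt of run 2 (11.3%). Of 11 semaphorins and plexins, 0 were higher and 6 lower in GRD/D, whereas 5 were higher and 1 lower in GRD+L/D+L and 5 higher and 0 lower in GRL/L. Of 12 hypoxia regulators and targets, 5 were higher and 0 lower in GRD/D, and 2 were higher and 6 lower in GRko/ko. Of 6 other inhibitors of vessel growth, 0 were higher and 4 lower in GRD+L/D+L. Of 9 other secreted factors, 4 were higher and 0 lower in GRD/D, 5 and 0 in GRD+L/D+L and 5 and 1 in GRko/ko. The summed macrophage markers differed in the same comparisons. Cartilage, fibroblast, endothelial, pericyte and smooth muscle or epithelial markers differed in some of them. The part of all these markers in the counts was not tested. Here too genotype and set of cultures cannot be told apart.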
